A study of Arabidopsis thaliana with 18 samples.

Results

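The 6 genes described here, PSAN, PSAE-1, PSBY, PSBW, LHCB4.1 and LHCB4.3, are encoded in the nucleus of Arabidopsis thaliana and their proteins work in the photosystems and antenna of the chloroplast. They were taken by name, as the genes to which a probe set of the ATH1 array is assigned alone in the platform's annotation, and each had 1 such probe set among the 22746 tested. Their log2 signals were followed through 6 groups of seedlings, 2 genotypes in each of 3 light conditions, with 3 arrays per group. Nothing measured on these arrays entered the rule that chose them, although the names were picked with earlier results of the same arrays known.

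Photosystem I and photosystem II are pigment-protein complexes of the thylakoid membrane that carry out the light-driven steps of electron transport, and antenna proteins of the LHC family pass excitation energy to them. Each photosystem is built from chlorophyll-binding core proteins encoded in the plastid and from smaller subunits and antenna proteins encoded in the nucleus and imported. In seedlings grown in darkness many of these nuclear genes are held low, and phytochrome, activated by light, removes factors that restrain them, among them the phytochrome-interacting factors (PIFs). Far-red light acts through phytochrome A but does not drive the light-dependent step of chlorophyll synthesis, so seedlings under it open without becoming green.

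All seedlings were of the Columbia background. The wild type was compared with pif4pif5, a double mutant of the basic helix-loop-helix factors PIF4 and PIF5. Seeds had 3 days of cold and a red pulse of 3 h at 50 µmol/m2/s to start germination, and every group then spent 3 days in darkness. The dark group was harvested at that point, a further group after far-red light (0.5 µmol/m2/s) for 1 h, and the last after far-red light (5 µmol/m2/s) for 24 h. Seedlings of the last group therefore differed from the others in duration, fluence rate and age together, without a dark group of their age, and these cannot be told apart. The study asked how loss of both factors alters the response of dark-grown seedlings to far-red light. Neither PIF4 nor PIF5 had a probe set of its own (0 each), so the mutant could not be checked on its mutated genes. The labels do not say that the replicates, lettered A, B and C, were separate cultures. The p values therefore measure the spread between these samples only, and that spread may be technical.

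Precision is limited by the number of arrays. Wild-type dark replicate C had a median signal of 6.16 over the tested probe sets, and the medians ran from 5.60 to 5.88 on the other 17. Replicates correlated at 0.967 to 0.997 over all probe sets, the lowest value being that of wild-type dark replicates B and C. Whole seedlings were used, and of the root markers PYK10, a beta-glucosidase of root endoplasmic reticulum bodies, had group means between 11.67 and 12.16. EXPA7, a root-hair expansin, had group means of 3.31 to 3.73. Probe sets of different genes bind their targets with different strength and carry no length scale, so every level below is compared only with levels of the same gene.

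Among the photosystem I genes, PSAN (AT5G64040) encodes a subunit on the lumen side of photosystem I that assists its interaction with plastocyanin. In darkness replicates A, B and C read 9.66, 9.70 and 9.68 log2 units in wild type and 10.26, 10.35 and 10.41 in pif4pif5. After 1 h of far-red light they read 10.09, 10.20 and 10.03 in wild type and 10.70, 10.71 and 10.32 in the mutant. After 24 h they read 11.93, 11.92 and 12.03 in wild type and 12.08, 11.93 and 12.16 in the mutant. Wild-type dark arrays were the lowest of the 18, and the 6 arrays of 24 h were the highest, with the genotypes overlapping there. Mutant dark arrays stood above all wild-type arrays of darkness and of 1 h. The order of the group means was wild type dark, wild type 1 h, mutant dark, mutant 1 h, wild type 24 h and mutant 24 h. Neighbours overlapped between mutant dark and mutant 1 h and between the genotypes at 24 h.

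PSAE-1 (AT4G28750) encodes a stromal subunit of photosystem I that takes part in the docking of ferredoxin, and it has a close relative, PSAE-2, without a probe set of its own here. Dark replicates A, B and C read 9.58, 10.06 and 9.68 in wild type and 10.72, 10.67 and 10.63 in pif4pif5. After 1 h the values were 9.94, 10.07 and 9.51 in wild type and 10.95, 10.98 and 10.32 in the mutant. After 24 h they were 11.82, 11.68 and 11.47 in wild type and 11.95, 11.99 and 11.96 in the mutant. Every mutant array was above every wild-type array in each of the 3 conditions. Within each genotype the dark and 1 h arrays overlapped, and the arrays of 24 h lay above both. The group means had the same order as those of PSAN.

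Among the photosystem II genes, PSBY (AT1G67740) encodes small membrane subunits that lie near cytochrome b559. In darkness its replicates A, B and C read 9.59, 9.78 and 9.85 in wild type and 10.07, 10.11 and 10.40 in pif4pif5. At 1 h they read 10.10, 10.33 and 10.02 in wild type and 10.86, 10.85 and 10.38 in the mutant. At 24 h they read 11.45, 11.68 and 11.72 in wild type and 11.73, 11.77 and 11.90 in the mutant. The wild-type dark arrays were again the lowest, and in each condition the mutant arrays lay above those of wild type, by a narrow margin at 24 h. Wild type at 1 h and mutant in darkness overlapped, as did mutant in darkness and mutant at 1 h.

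PSBW (AT2G30570) encodes a small subunit of photosystem II that helps to hold the core and its antenna together in supercomplexes. Its dark replicates A, B and C read 9.39, 9.35 and 9.34 in wild type and 9.81, 9.58 and 9.91 in pif4pif5. The 1 h arrays read 9.50, 9.94 and 9.52 in wild type and 10.22, 10.26 and 9.96 in the mutant. The 24 h arrays read 10.99, 11.36 and 11.05 in wild type and 11.13, 11.46 and 11.29 in the mutant. Mutant arrays were above wild-type arrays in darkness and at 1 h, and the genotypes overlapped at 24 h. In both genotypes the 1 h arrays lay above the dark arrays. Wild type at 1 h overlapped with mutant in darkness.

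In the antenna, LHCB4.1 (AT5G01530) encodes CP29, a minor antenna protein of photosystem II that sits between the core and the trimeric antenna. Replicates A, B and C in darkness read 11.07, 11.33 and 10.51 in wild type and 11.68, 11.56 and 11.79 in pif4pif5. At 1 h they were 11.51, 11.51 and 11.44 in wild type and 11.87, 11.94 and 11.64 in the mutant. At 24 h they were 12.22, 12.47 and 12.54 in wild type and 12.65, 12.53 and 12.67 in the mutant. The wild-type dark arrays spread most (SD 0.42, n = 3), with replicate C lowest, and still lay below all other arrays. In darkness and at 1 h the mutant arrays were above those of wild type, and at 24 h the lowest mutant array fell just inside the wild-type range. LHCB4.2 encodes a close isoform of the same protein, and whether its transcript also binds the LHCB4.1 probe set was not tested.

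LHCB4.3 (AT2G40100), also called LHCB8, encodes a divergent form of CP29. Its replicates A, B and C in darkness read 6.78, 6.71 and 7.44 in wild type and 6.83, 7.13 and 7.17 in pif4pif5. At 1 h they read 7.04, 7.21 and 7.07 in wild type and 7.46, 7.36 and 6.98 in the mutant. At 24 h they read 8.12, 8.10 and 7.59 in wild type and 7.19, 7.15 and 7.36 in the mutant. Only the wild-type arrays of 24 h stood apart, above the other 15 arrays, and the remaining 5 groups overlapped with their neighbours in the order of their means. That order was wild type dark, mutant dark, wild type 1 h, mutant 24 h, mutant 1 h and wild type 24 h. It differs from the order shared by the other 5 genes, in which mutant 24 h came last.

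**Figure D1:**
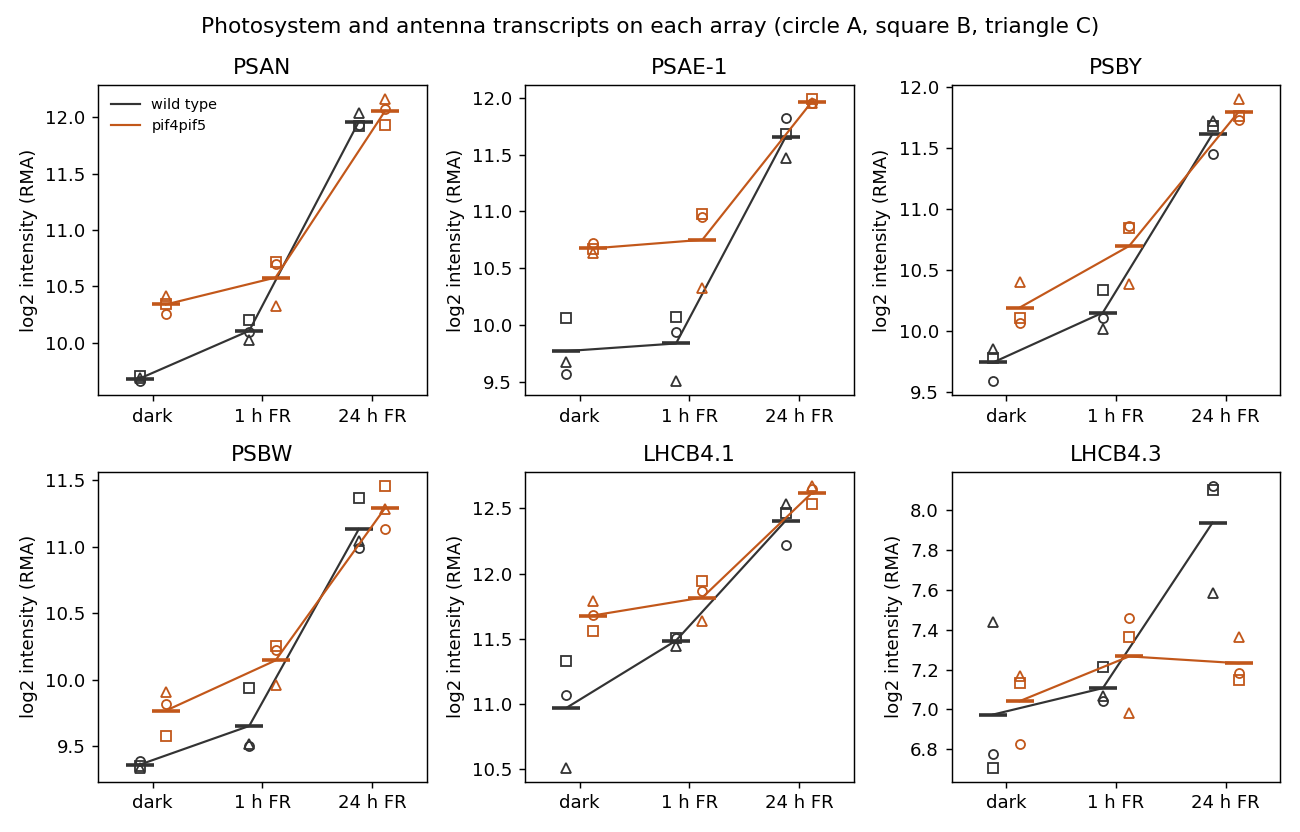
Log2 signal of the 6 genes by genotype and light condition, a panel for each gene, with a point for each array and a bar for the mean of 3 arrays. PSAN, PSAE-1, PSBY, PSBW and LHCB4.1 are highest at 24 h in both genotypes, whereas LHCB4.3 is highest in wild type at 24 h, at 7.59 to 8.12.

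After 24 h of far-red light all 6 genes rose in wild type against darkness, by 0.96 to 2.28 log2 units (limma, 3 arrays against 3). PSAN, the lumen-side subunit, rose by 2.28 ± 0.13 (SE), or 4.86-fold (adjusted p = 3.11e-09), and PSAE-1, the ferredoxin-side subunit, by 1.88 ± 0.18 (adjusted p = 1.51e-06). In photosystem II, PSBY rose by 1.87 ± 0.15 (adjusted p = 2.35e-07) and PSBW by 1.77 ± 0.15 (adjusted p = 4.26e-07). In the antenna, LHCB4.1 rose by 1.44 ± 0.17, or 2.71-fold (adjusted p = 1.21e-05). LHCB4.3 rose by 0.96 ± 0.19 (adjusted p = 0.00279), and that call was lost when the model held the compared groups only (adjusted p = 0.0747). A gene was called when its Benjamini-Hochberg adjusted p, taken over all tested probe sets, was under 0.05. By that rule 4.48% of all tested probe sets were called higher in the same comparison, against 6 of the 6 genes. The median change was 1.82 for the 6 genes and -0.12 for all probe sets. Quantile normalization moved that overall median to -0.03. In whole seedlings, a change in the number of cells of a type and a change of RNA per cell cannot be told apart.

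In pif4pif5, 5 of the 6 genes rose over the same interval, and 4.24% of all probe sets were called higher. PSAN rose by 1.72 ± 0.13 (adjusted p = 9.09e-08) and PSAE-1 by 1.29 ± 0.18 (adjusted p = 9.93e-05). PSBY rose by 1.61 ± 0.15 (adjusted p = 1.54e-06), PSBW by 1.53 ± 0.15 (adjusted p = 2.63e-06) and LHCB4.1 by 0.94 ± 0.17 (adjusted p = 0.000817). The divergent CP29 gene LHCB4.3 was not called, with 0.19 ± 0.19 and a 95% interval from -0.22 to 0.60 (adjusted p = 0.627), and its dark and 24 h arrays overlapped. The median over the 6 genes was 1.41, and over all probe sets -0.04. Shifting the arrays to equal medians moved the latter to 0.11. These calls and those in wild type compare different arrays, but both use the same estimate of the spread, taken from all 18 arrays. Each mutant value also shares its dark arrays with the mutant 1 h comparison below, and likewise in wild type.

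The 1 h far-red treatment gave no called change in any of the 6 genes in either genotype by limma. In wild type the differences from darkness were 0.42 ± 0.13 for PSAN (adjusted p = 0.192), 0.07 ± 0.18 for PSAE-1, 0.41 ± 0.15 for PSBY, 0.29 ± 0.15 for PSBW, 0.52 ± 0.17 for LHCB4.1 (adjusted p = 0.251) and 0.13 ± 0.19 for LHCB4.3. The value for PSAE-1 turned to -0.03 without wild-type dark replicate A and to -0.05 without 1 h replicate B. That for LHCB4.1 fell to 0.29 without wild-type dark replicate C and rose to 0.70 without dark replicate B. An unadjusted p under 0.05 was found for 3 of the 6 (PSAN, PSBY and LHCB4.1) and for 11.3% of all probe sets. Of all probe sets, 0.545% were called higher. For 4 of the 6 genes all 1 h arrays lay above all dark arrays, which held for 2.26% of all probe sets. The exceptions were PSAE-1 and LHCB4.3. Wild-type dark replicate C was bright over all probe sets (median deviation 0.25). Over the 6 genes its deviations ran from -0.46 for LHCB4.1 to 0.47 for LHCB4.3, with a mean of 0.0011. How far this replicate lowers that share of all probe sets was not tested.

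In the mutant the differences at 1 h were 0.24 ± 0.13 for PSAN, 0.08 ± 0.18 for PSAE-1, 0.51 ± 0.15 for PSBY (adjusted p = 0.272), 0.38 ± 0.15 for PSBW (adjusted p = 0.705), 0.14 ± 0.17 for LHCB4.1 and 0.23 ± 0.19 for LHCB4.3. None was called (0 of 6), 0.462% of all probe sets were called higher, and an unadjusted p under 0.05 was found for PSBY and PSBW, 2 of the 6, and for 5.78% of all probe sets. Only for PSBW did all 1 h arrays lie above the dark arrays, against 4.17% of all probe sets. Replicate C of the mutant 1 h group was the lowest of its group for 6 of the 6 genes, by 0.18 to 0.43 below the group mean, while the median deviation of all probe sets on that array was -0.01. Without it the difference of PSBY was 0.66 (adjusted p = 0.0629). In the wild-type 1 h group, replicate C was lowest for 4 of the 6 and replicate B highest for 5 of the 6. With array weights, which limma estimates from the fit of each array, PSBY was called in the mutant at 1 h (0.57, adjusted p = 0.0246). The share of all probe sets called in either direction was then 2.08%, against 0.699% in the main fit.

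**Figure D2:**
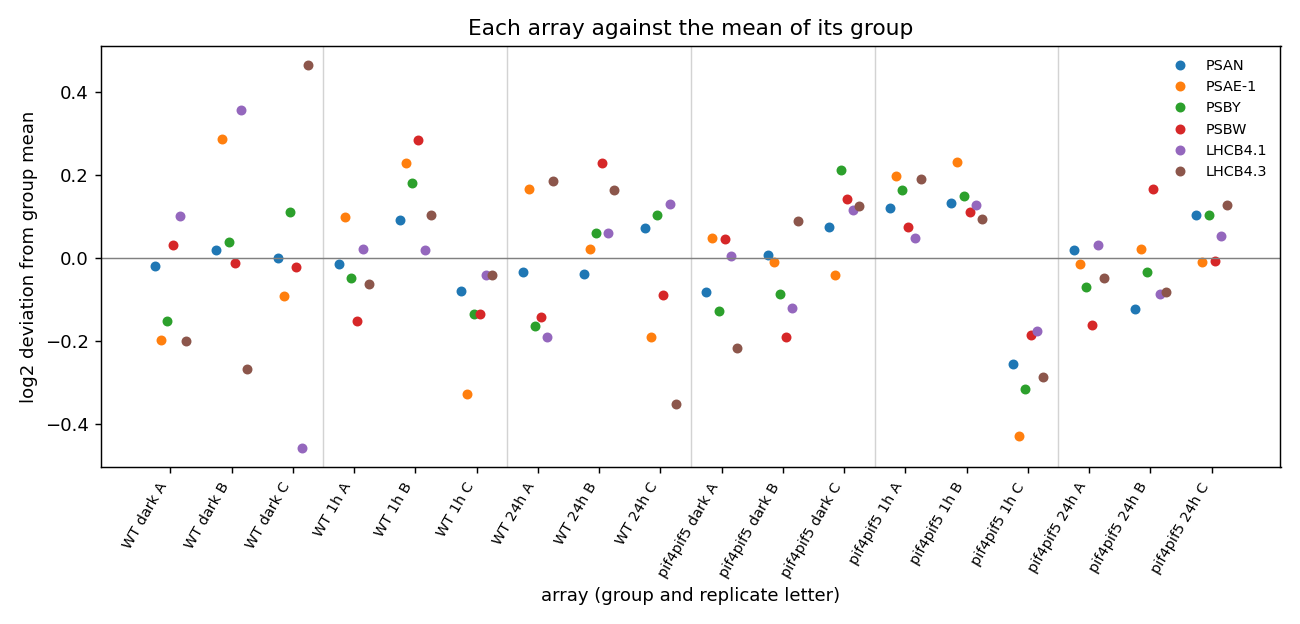
Deviation of each array from the mean of its group, in log2 units, for the 6 genes on the 18 arrays. All 6 genes lie below 0 on replicate C of the mutant 1 h group, and LHCB4.1 and LHCB4.3 deviate in opposite directions on wild-type dark replicate C, at -0.46 and 0.47.

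Between 1 h and 24 h, 6 of the 6 genes rose in wild type, where 3.81% of all probe sets were called higher, and 5 of the 6 in the mutant, where 4.52% were. In wild type the rise was 1.86 for PSAN, 1.82 for PSAE-1, 1.47 for PSBY, 1.48 for PSBW and 0.92 for LHCB4.1 (adjusted p = 9.36e-08 to 0.00154). LHCB4.3 rose by 0.83 ± 0.19 (adjusted p = 0.0108), and this call was lost without wild-type 1 h replicate A, 24 h replicate A or 24 h replicate B (adjusted p = 0.0513, 0.0551 and 0.0580). In the mutant the rises were 1.48 for PSAN, 1.21 for PSAE-1, 1.103 for PSBY, 1.15 for PSBW and 0.80 for LHCB4.1 (adjusted p = 6.56e-07 to 0.00352). LHCB4.3 differed by -0.03 ± 0.19 there, with a 95% interval from -0.44 to 0.37 (adjusted p = 0.938), and the value was 0.03 after a shift of the arrays to equal medians and 0.0013 after quantile normalization. For the 5 other genes the 24 h group lay further from the 1 h group than the 1 h group lay from darkness, in both genotypes. Duration, fluence rate and age all differ between the 1 h and 24 h groups. How much of the 24 h rise came in the first hour of that treatment was therefore not measured.

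**Figure D3:**
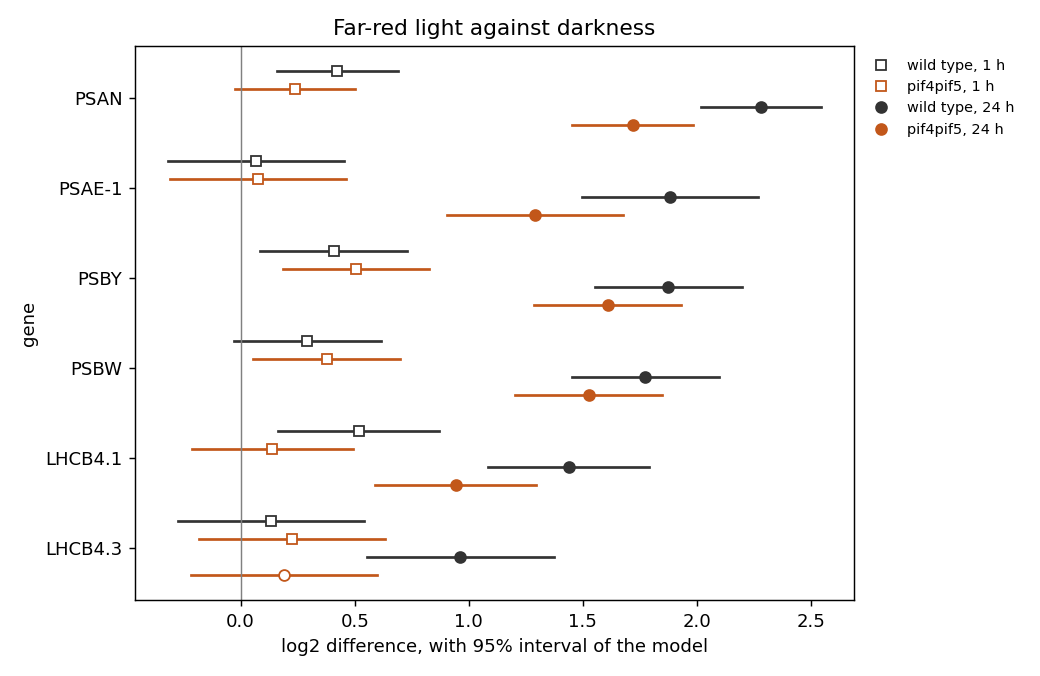
Log2 change of each gene with far-red light in wild type and in pif4pif5, with 95% intervals of the model; filled symbols were called and open ones were not. The symbols of 24 h lie at 0.96 to 2.28 in wild type and, LHCB4.3 apart, at 0.94 to 1.72 in the mutant, and no symbol of 1 h is filled.

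In darkness, 5 of the 6 genes had every mutant array above every wild-type array, against 2.23% of all probe sets, but none (0 of 6) was called by limma. That share includes wild-type dark replicate C, bright over all probe sets (median deviation 0.25). On this array the 6 genes deviated by -0.46 (LHCB4.1) to 0.47 (LHCB4.3), with a mean of 0.0011. How far this array lowers the share was not tested. PSAE-1 had the largest difference of the 6, 0.90 ± 0.18 or 1.87-fold (adjusted p = 0.128). LHCB4.1 differed by 0.71 ± 0.17 (adjusted p = 0.264), PSAN by 0.66 ± 0.13 (adjusted p = 0.120), PSBY by 0.45 ± 0.15 (adjusted p = 0.536) and PSBW by 0.41 ± 0.15 (adjusted p = 0.587). An unadjusted p under 0.05 was found for these 5 of the 6 and for 7.27% of all probe sets. LHCB4.3 differed by 0.07 ± 0.19, with overlapping arrays. Over all probe sets 0.0264% were called in either direction. An exact permutation test of 3 arrays against 3 cannot give a two-sided p below 0.1, so no separate test was made of single genes.

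The calls in darkness depended on the arrays and on the model. Without wild-type dark replicate A, PSAN (adjusted p = 0.0229), LHCB4.1 (adjusted p = 0.0399) and PSAE-1 (adjusted p = 0.0424) were called, 3 of the 6, while the share of all probe sets called went to 3.09%. The differences themselves were then 0.65, 0.76 and 0.80. Without both other wild-type dark arrays, B and C, an alternative chosen after the data were seen, 0 of the 6 were called; the lone wild-type dark array is then assumed to vary like the other groups. PSAE-1 alone was called with the replicate letter as a block (adjusted p = 0.0417). PSAN alone was called with an intensity trend in the variance model (adjusted p = 0.0344) and after quantile normalization (adjusted p = 0.0499). The direction of these 5 genes was the same in every alternative run.

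After 1 h of far-red light the mutant arrays were again above those of wild type for 5 of the 6 genes, against 7.52% of all probe sets, and none (0 of 6) was called, with 0.0264% of all probe sets called in either direction. The differences were 0.91 ± 0.18 for PSAE-1 (adjusted p = 0.139), 0.55 ± 0.15 for PSBY (adjusted p = 0.499), 0.49 ± 0.15 for PSBW (adjusted p = 0.618), 0.47 ± 0.13 for PSAN (adjusted p = 0.419) and 0.33 ± 0.17 for LHCB4.1. LHCB4.3 differed by 0.16 ± 0.19, and its arrays overlapped. An unadjusted p under 0.05 was found for 4 of the 6 and for 4.06% of all probe sets. Without mutant 1 h replicate C, the array on which all 6 genes were low, PSAE-1 differed by 1.13 and was called (adjusted p = 0.0100). The share of all probe sets called was then 0.229%. Wild-type 1 h replicate C, kept in that fit, was also the lowest of its group for PSAE-1, at 9.51. The deviations of these same-lettered arrays from their group means correlated at 0.45 over all probe sets. PSAE-1 was also called with the replicate letter as a block (adjusted p = 0.0234). With array weights PSAE-1, PSAN and PSBY were called (adjusted p = 0.00361, 0.0120 and 0.0207), while the share of all probe sets called rose to 1.87%, the highest of any alternative.

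After 24 h none of the 6 genes (0 of 6) was called between the genotypes, where 0.365% of all probe sets were called in either direction. The differences were 0.31 ± 0.18 for PSAE-1, 0.21 ± 0.17 for LHCB4.1, 0.18 ± 0.15 for PSBY, 0.16 ± 0.15 for PSBW and 0.10 ± 0.13 for PSAN. The 95% interval for PSAN ran from -0.17 to 0.36 and that for PSAE-1 from -0.08 to 0.70. Mutant arrays lay above wild type for 2 of the 6, PSAE-1 and PSBY, against 6.75% of all probe sets. LHCB4.3 stood on the other side: its mutant arrays lay below all wild-type arrays, by 0.71 ± 0.19 (adjusted p = 0.175), with an interval from -1.11 to -0.30. It was the only gene of the 6 with an unadjusted p under 0.05, against 8.27% of all probe sets, and it was called with array weights only (-0.76, adjusted p = 0.0242). With those weights 0.989% of all probe sets were called.

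**Figure D4:**
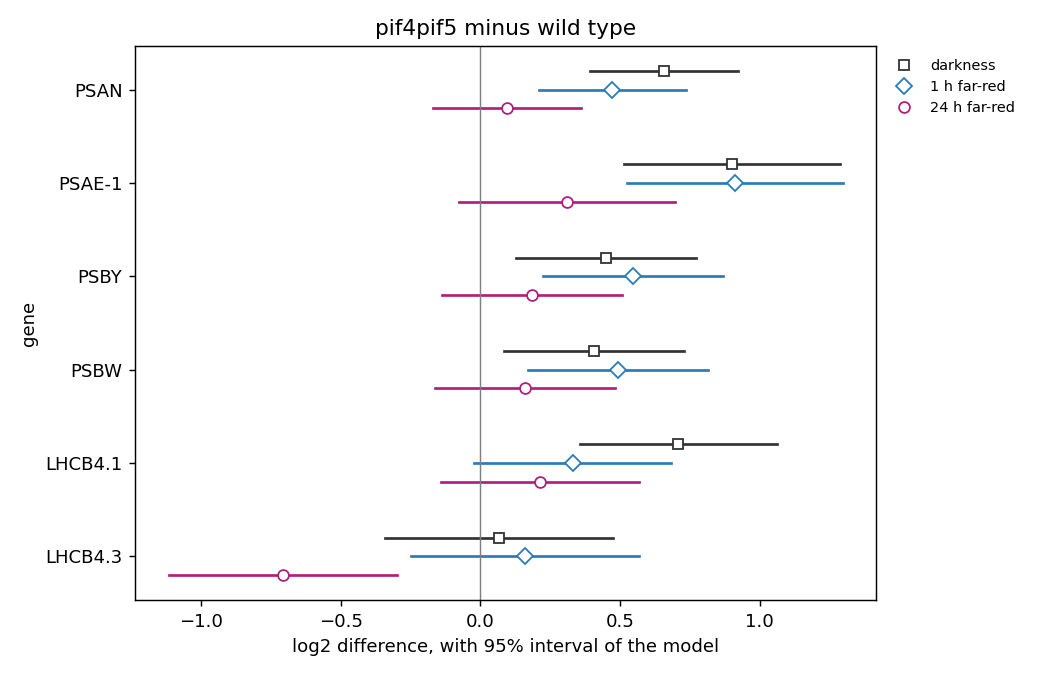
Log2 difference between pif4pif5 and wild type for each gene in darkness, after 1 h and after 24 h, with 95% intervals of the model; every symbol is open because no difference was called. PSAE-1 lies at 0.90 in darkness and 0.91 at 1 h, and LHCB4.3 at 24 h is the only symbol below 0, at -0.71.

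Whether the genotypes differed in their response was tested as an interaction. For 24 h against darkness the mutant change was smaller for all 6 genes, by values from -0.25 for PSBW to -0.77 for LHCB4.3, and none (0 of 6) was called, with 0.0132% of all probe sets called. PSAN (-0.56 ± 0.18), PSAE-1 (-0.59 ± 0.26) and LHCB4.3 (-0.77 ± 0.28) had an unadjusted p under 0.05, against 5.88% of all probe sets, and each had an adjusted p of 0.840. LHCB4.1 stood at -0.50 ± 0.24 and PSBY at -0.27 ± 0.22. These differences hold the dark arrays of both genotypes, the same arrays that gave the dark differences above. For 24 h against 1 h the interaction ran from -0.12 for LHCB4.1 to -0.87 for LHCB4.3, with 0 of 6 called, 3 at an unadjusted p under 0.05 (3% of all probe sets) and 0.0044% of all probe sets called. For 1 h against darkness it ran from -0.38 for LHCB4.1 to 0.10 for PSBY, with 0 of 6 called, 0 of 6 at an unadjusted p under 0.05 (1.93% of all probe sets) and 0% of all probe sets called. In that last contrast PSAE-1 stood at 0.0087 and turned to -0.0016 after quantile normalization. A response of LHCB4.3 called in wild type and not in the mutant is thus not shown to differ between the genotypes.

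Of the wider pathway few nuclear genes could be read, since 9 of the 58 listed genes of photosystem I, photosystem II, the antenna, the electron carriers and the ATP synthase had a probe set assigned to them alone, and 6 of the 9 are the genes above. The other three were PSB27, an assembly factor of photosystem II, LHCB4.2, the close CP29 isoform, and ATPC1, the gamma subunit of the chloroplast ATP synthase. All rose at 24 h in wild type, by 1.24 ± 0.18, 1.54 ± 0.15 and 1.19 ± 0.15 (adjusted p = 0.000104, 2.06e-06 and 3.57e-05). They also rose in the mutant, by 1.07, 1.16 and 1.08 (adjusted p = 0.000434, 5.33e-05 and 9.93e-05). LHCB4.2, like LHCB4.1, was higher in the dark mutant arrays, at 11.40, 11.28 and 11.72 against 10.51, 10.91 and 11.09, a difference of 0.63 ± 0.15 that was not called (adjusted p = 0.322). By list, 2 of 12 photosystem I genes, 3 of 13 photosystem II genes, 3 of 21 antenna genes and 1 of 12 carrier and ATP synthase genes were measured. Each of them rose at 24 h in both genotypes, LHCB4.3 in the mutant apart.

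The photosystem genes of the plastid genome include those of the core proteins these nuclear subunits join, and all 20 listed were measured. At 24 h against darkness 0 of 20 were called in either direction in wild type or mutant, where 11.3% and 11.5% of all probe sets were. With only 20 genes, that count does not by itself set the plastid genes apart from all probe sets. In wild type 2 of the 20 were called after the arrays were shifted to equal medians, 4 without wild-type dark replicate C and 1 with the replicate letter as a block. In the mutant 1 was called with that block and 1 without mutant dark replicate C. Over the alternatives the share of all probe sets called ran from 3.32% to 18.4% in wild type and from 6.78% to 21.2% in the mutant. Without wild-type dark replicate C it was 13.7% in wild type. The median change of the 20 was 0.32 in wild type, with a range from -0.14 to 1.52, and 0.16 in the mutant, where the shift to equal medians gave 0.31. The highest was psbA, the gene of the D1 reaction-centre protein, at 1.52 ± 0.53 in wild type (adjusted p = 0.0768, and 0.0444 with equal medians). The standard error of LHCB4.1 in that comparison was 0.17. Against 1 h, psbA rose by 1.98 ± 0.53 in the mutant (adjusted p = 0.0197), the only called plastid gene there. On replicate A of the mutant 1 h group 19 of the 20 plastid genes were at their lowest in the group, and psbA read 5.98 there against 7.90 and 7.39. Without that array 0 of 20 were called, and 0 of 20 without mutant 24 h replicate C. The count was 8 without mutant 1 h replicate B, 2 without replicate C, 2 with quantile normalization, 4 with equal medians, and 3 each with array weights and with the replicate letter as a block. The share of all probe sets called in either direction was 11.4% in the main fit. Over the alternatives it ran from 7.37% without mutant 1 h replicate A to 22.9% with array weights, and was 8.15% without 1 h replicate C. The amplification protocol of the labels starts from total RNA, and how well it copies plastid transcripts was not tested.

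HYH, a bZIP factor related to HY5, was the only measured gene of 8 listed greening regulators. Its time course was unlike that of the 6 genes: it rose at 1 h by 1.65 ± 0.24 in wild type and 1.57 ± 0.24 in the mutant (adjusted p = 0.000914 and 0.00156). At 24 h it was 1.58 above darkness in wild type (adjusted p = 0.000215) and 0.74 in the mutant, where it was not called (adjusted p = 0.0571). It was called there after quantile normalization (0.86, adjusted p = 0.00790), after a shift to equal medians (0.89, adjusted p = 0.0120) and in 4 other alternatives. The wild-type call at 1 h was lost with the compared groups only (adjusted p = 0.0928). In darkness the group means of HYH lay under 5, the limit for dim probe sets, at 4.16 (SD 0.64, n = 3) in wild type and 4.88 in the mutant. Of the other marker lists, the reserve genes ICL and OLEO3, 2 of 5 listed, fell at 24 h in both genotypes, ICL by 1.11 and OLEO3 by 1.82 in wild type, and by 0.67 and 2.93 in the mutant (adjusted p = 1.34e-07 to 0.0108). The call of ICL in the mutant was lost with equal medians (-0.52, adjusted p = 0.0705), without mutant 24 h replicate B (adjusted p = 0.0738) and without mutant dark replicate C (adjusted p = 0.0509). OLEO3, an oil-body protein of the seed, was also lower in the mutant than in wild type at 24 h (-1.24 ± 0.22, adjusted p = 0.0166), a call lost with the compared groups only and without mutant 24 h replicate C or wild-type 24 h replicate A or B (adjusted p = 0.0904 to 0.238). The shoot meristem marker CLV3, 1 of 3 listed, rose in wild type at 24 h by 0.40 ± 0.12 (adjusted p = 0.0408), from a group mean of 3.04 to 3.44, and stood at 0.13 in the mutant (adjusted p = 0.600). That call was lost in 6 of 15 alternatives, among them the leaving out of wild-type dark replicate B (adjusted p = 0.114) or of wild-type 24 h replicate A (0.151) or B (0.0869). All group means of CLV3 lay under 5, the limit for dim probe sets. Both root markers measured, 2 of 5, had 0 calls in all 12 comparisons, but with quantile normalization 1 of them was called lower in the mutant at 24 h against 1 h. EXPA7 was also under that limit in every group, so its lack of calls says little. The listed vasculature and epidermis markers had 0 probe sets of their own. The part that the age of the seedlings, the use of reserves and the meristem have in the photosystem values was not tested.

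**Figure D5:**
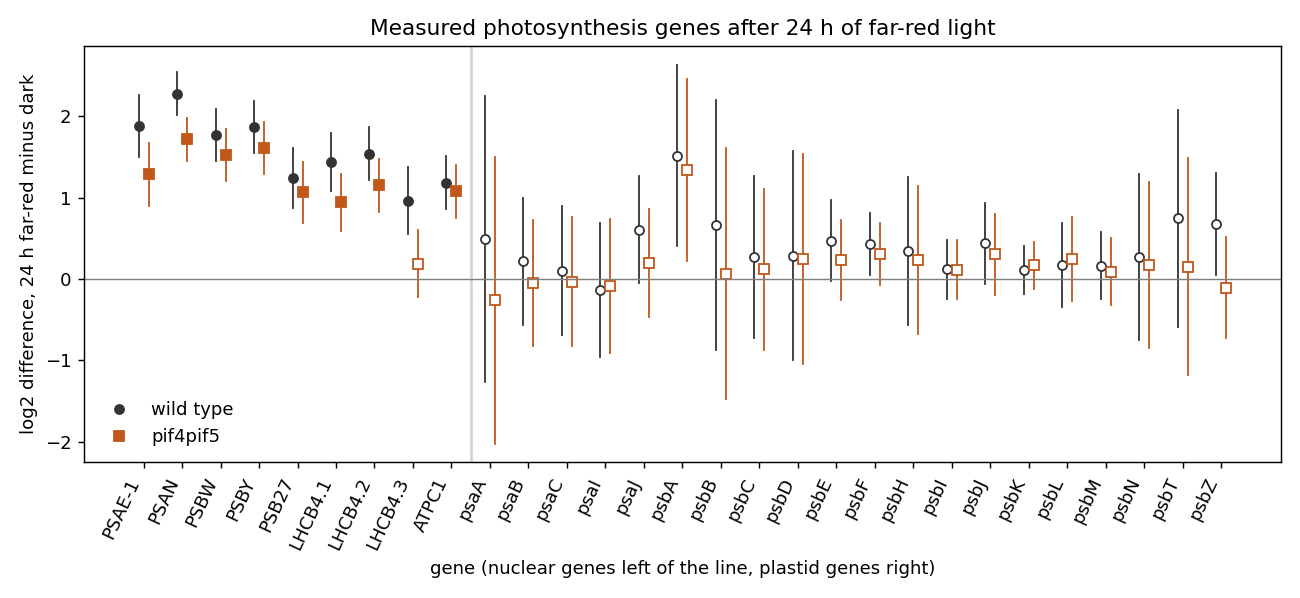
Log2 change at 24 h against darkness for the measured genes of each list, wild type and pif4pif5 side by side, with filled points for called genes. The 9 nuclear photosynthesis genes lie at 0.96 to 2.28 in wild type, and the 20 plastid photosystem genes lie at -0.14 to 1.52. Of the plastid genes 0 were called on the values as deposited, where 11.3% of all probe sets were called in either direction in wild type.

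Over the 18 arrays the 6 genes fell into a close set of 5 and a looser LHCB4.3. Pearson's r among PSAN, PSAE-1, PSBY, PSBW and LHCB4.1 ran from 0.92 to 0.99, and with LHCB4.3 from 0.45 to 0.64. These values are descriptions over arrays that share 6 groups and, for 5 of the 6 genes, hold the rise at 24 h. Among 13512 other probe sets of single genes, the pattern most like PSAN was that of PSBY (r = 0.986), followed by TRXF2 (0.986), which encodes a chloroplast thioredoxin of the f type, and AT2G04039 (0.985). PSAE-1 was closest to TROL (0.986), which encodes a thylakoid protein that binds ferredoxin-NADP reductase, then to AT2G42220 (0.985) and AT5G48490 (0.984). PSBY was closest to PSAN, PSBW (0.985) and AT1G18060 (0.984), and PSBW to PSBY, PSAN (0.980) and AT3G47070 (0.979). LHCB4.1 was closest to AT1G52220 (0.964), listed as CURT1C, a protein of the family that curves thylakoid membranes, then to AT3G61870 (0.950) and PSAN (0.942). By rank correlation PSAN was first for LHCB4.1 (Spearman's rho = 0.986). LHCB4.3 had no neighbour as close: the first were GSTL3 (0.873), a glutathione transferase of the lambda class, AT5G43740 (0.869) and AT3G25805 (0.858).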

How the data were processed

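The deposited values are log2 signals of 18 ATH1 arrays that the authors made with RMA, per the submitters' processing notes; the RMA version and annotation are not stated in them. Per the labels, biotin label was added during amplification of 100 ng of total RNA. The values were used as deposited. Of 22810 probe sets, 64 Affymetrix controls were left out and 22746 tested; 13513 were assigned to 1 gene, 503 to several and 8730 to none. With limma 3.58.1 (R 4.3.3), a linear model with a mean for each of the 6 groups was fitted across the 18 arrays (12 residual and 5.91 prior degrees of freedom), in 12 comparisons. Adjusted p values are Benjamini-Hochberg values over all tested probe sets, called under 0.05. The procedure was tested on simulated data.

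The 6 genes are named in every comparison; pathway and marker genes come from lists, up to 4 measured members each in list order, psbA being singled out after their values were seen, and the 3 nearest patterns of each gene by Pearson correlation. Members and lists were chosen with earlier results of these data known. Alternatives were 2 other normalizations, the compared groups only, dim probe sets left out (mean under 5), single-gene probe sets only, the replicate letter as a block, array weights, 2 variance models and each array left out; for list genes they were added after the data were seen. Of 45 pairs of same-lettered arrays, 24 deviated together (r over 0.1), and in 2 of the 15 pairs of groups all 3 letters did, so letters were not treated as pairs in the main model. The letters were uneven: r ran from 0.09 to 0.45 for replicate C, from -0.04 to 0.34 for A and from -0.22 to 0.34 for B. Replicate C arrays thus share deviations across groups that the main model leaves in. Promoter and protein sequences and genome positions were not used here.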

Additional observations from a re-analysis of the deposited data

How the results depend on the processing

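The 22 light changes called for the 6 genes kept direction in 336 of 336 values recomputed under the alternatives, and 332 stayed called; the 4 lost belong to LHCB4.3 in wild type and stand beside its results. Of 882 values for the 50 differences not called, 13 became called and 26 changed sign.

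The number of the 6 genes called went from 0 to 1 in the mutant at 1 h against darkness with array weights. Between genotypes it went from 0 to 3 at 1 h with array weights and ran from 0 to 1 with single arrays left out. At 24 h it became 1 with array weights. With these weights the shares of all probe sets called in the same comparisons were 2.08%, 1.87% and 0.989%. In darkness the number of the 6 genes called became 1 with an intensity trend and 1 with quantile normalization. It ran from 0 to 3 with single arrays left out. With the replicate letter as a block it became 1 in darkness (PSAE-1, adjusted p = 0.0417) and 1 at 1 h (PSAE-1, adjusted p = 0.0234), and no other call of the 6 genes changed. Wild type at 1 h and at 24 h is the only compared pair of groups in which all 3 letters correlated over 0.1, and its 6 calls stayed 6 under the block. The letters gave correlations from -0.22 to 0.45 between same-lettered arrays, and 11 of 18 arrays were closest to their own letter.

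The changes of sign all concern values near 0 that were not called. For the genotype difference in the 1 h response, PSAE-1 became -0.081 with array weights, -0.0016 with quantile normalization and -0.19 without wild-type dark arrays B and C, which also gave -0.11 for LHCB4.3 and -0.054 for PSBY. Leaving out single arrays gave -0.16 to 0.22 for PSAE-1, -0.14 to 0.24 for LHCB4.3 and -0.0087 to 0.23 for PSBW. LHCB4.3 in the mutant at 24 h against 1 h became 0.026 with equal medians and 0.0013 with quantile normalization, and ran from -0.18 to 0.061 with single arrays left out. In the same way PSAE-1 in the mutant at 1 h ran from -0.040 to 0.29, LHCB4.3 between genotypes in darkness from -0.066 to 0.30, and at 1 h in wild type LHCB4.3 from -0.00065 to 0.37 and PSAE-1 from -0.047 to 0.23. The cause was not tested, beyond fewer arrays where one was left out.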

Other observations

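Within groups, where light condition and genotype are held fixed, the deviations of the 6 genes from their group means also varied together on some arrays. As a description over the 18 arrays, which share 6 groups, the deviations correlated at 0.84 for PSAN with PSBY, at 0.63 for PSBY with PSBW and at 0.58 for PSAN with PSAE-1. Mutant 1 h replicate C weighs heavily in these values, above all in the last. PSAN deviated there by -0.25, PSAE-1 by -0.43, PSBY by -0.32 and PSBW by -0.19. The correlations of these pairs were not recomputed without that array. The pair of CP29 genes, LHCB4.1 and LHCB4.3, had a value of -0.51, the only negative value of the 15 pairs, and it became 0.037 without wild-type dark replicate C. On wild-type dark replicate C, the array with the highest overall median, LHCB4.1 deviated from its group mean by -0.46 and LHCB4.3 by 0.47.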
